A study of Mus musculus with 8 samples.

Results

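The genes described here encode enzymes that conjugate, oxidise or hydrolyse drugs, pollutants and reactive metabolites. They were chosen by symbol from the deposited count table, with no use of measured values: glutathione S-transferases of the alpha, mu, pi, theta, kappa, omega and zeta classes (Gst), microsomal glutathione S-transferases (Mgst), UDP-glycosyltransferases (Ugt), sulfotransferases (Sult), flavin-containing monooxygenases (Fmo), carboxylesterases (Ces) and epoxide hydrolases (Ephx). The rule found 86 of the 18824 genes in the table, comprising 22 Gst, 3 Mgst, 16 Ugt, 17 Sult, 6 Fmo, 18 Ces and 4 Ephx genes. Of these, 48 had enough counts to be tested and 38 did not. RNA came from lungs of mice aged 8 weeks that had been given 2 mg/kg bleomycin in 50 µl saline through the trachea on day 0 and killed on day 21. The 4 wild-type libraries are called WT_BLM and the 4 libraries of Slc15a3-/- mice KO_BLM. Slc15a3 encodes the endolysosomal peptide and histidine transporter also named PHT2, and its loss was not restricted to a cell type as far as the labels say. Both groups carry the bleomycin treatment and saline-treated lungs were not analysed here, so each difference below is between genotypes after injury.

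Detoxification is usually described in steps. Oxidation or hydrolysis exposes a reactive group, conjugation to glutathione, glucuronic acid or sulfate makes the product water soluble, and membrane pumps export it. The Gst, Mgst, Ugt and Sult genes encode conjugating enzymes, whereas the Fmo, Ces and Ephx genes encode oxidising and hydrolysing enzymes, so the set covers more than conjugation in the strict sense. In lung these enzymes are known from airway club cells, alveolar type 2 cells, fibroblasts, endothelium and macrophages, and several are classical targets of the transcription factor NRF2 or of the aryl hydrocarbon receptor.

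The libraries held 18878835 to 20180831 counts in WT_BLM and 17627999 to 18471445 in KO_BLM. Slc15a3 had 841 to 1124 counts per library in WT_BLM and 5 to 18 in KO_BLM, which fits the labels (log2 fold change -6.36 ± 0.23 SE, adjusted p = 9.36e-07, edgeR). Markers of alveolar type 2 cells summed to 9886 to 39210 CPM across the libraries, and markers of hepatocytes, which express many of these enzymes highly, to 4.3 to 14.7 CPM, with albumin at no more than 4.38 CPM. Whether each library is 1 animal is not stated in the labels, so p-values measure the spread between these libraries, which may be technical. In bulk lung, fewer cells of a type and less RNA per cell cannot be told apart. The labels used here give no batch. Below, CPM is the count per library size after TMM scaling, brought to 1 common size, FPKM is the deposited value per gene length, and a gene is called higher or lower in KO_BLM at an edgeR quasi-likelihood adjusted p below 0.05 (Benjamini-Hochberg over all 14746 tested genes).

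Most of the tested enzyme genes that changed were higher in KO_BLM. Of 48 tested, 25 were higher, 4 were lower and 19 were not called. Of the 25, Ces1b, Ces2b and Ces2e passed the count filter through KO_BLM alone. The genotypes differed widely: 41.5% of all tested genes were called, 20.7% higher and 20.8% lower. Against this background 60.4% of the tested enzyme genes were called. The median log2 fold change was 0.56 over the tested enzyme genes and 0.0025 over all tested genes, and 41 of the 48 were above 0. Gsta2, Gstp2, Ephx3 and Ugt8a, above 0 but not called, also passed the count filter through KO_BLM alone. The direction of these genes and of Ces1b, Ces2b and Ces2e adds nothing to the median or to the 41. In 24 of the 48 the 4 values of a group all lay beyond those of the other, while 40.9% of all tested genes were apart in this way. Without the KO_BLM libraries 1 and 2, which are discussed below, 16 of 49 enzyme genes (32.7%) were called, 13 of them higher, and 22.6% of all tested genes were called. With library totals alone as scaling, 30 members were higher and 3 lower, and over all genes the split went from 3057 higher and 3061 lower to 3789 higher and 2253 lower, with a median shift of 0.0883. By abundance, of 24 with a mean of at least 10 CPM, 14 were higher and 2 lower, and of the 24 less abundant ones, 11 were higher and 2 lower. Those 11 include Ces1b, Ces2b and Ces2e, and Gsta2, Gstp2, Ephx3 and Ugt8a are also among the less abundant. These counts therefore cannot show whether the split followed abundance.

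**Figure D1:**
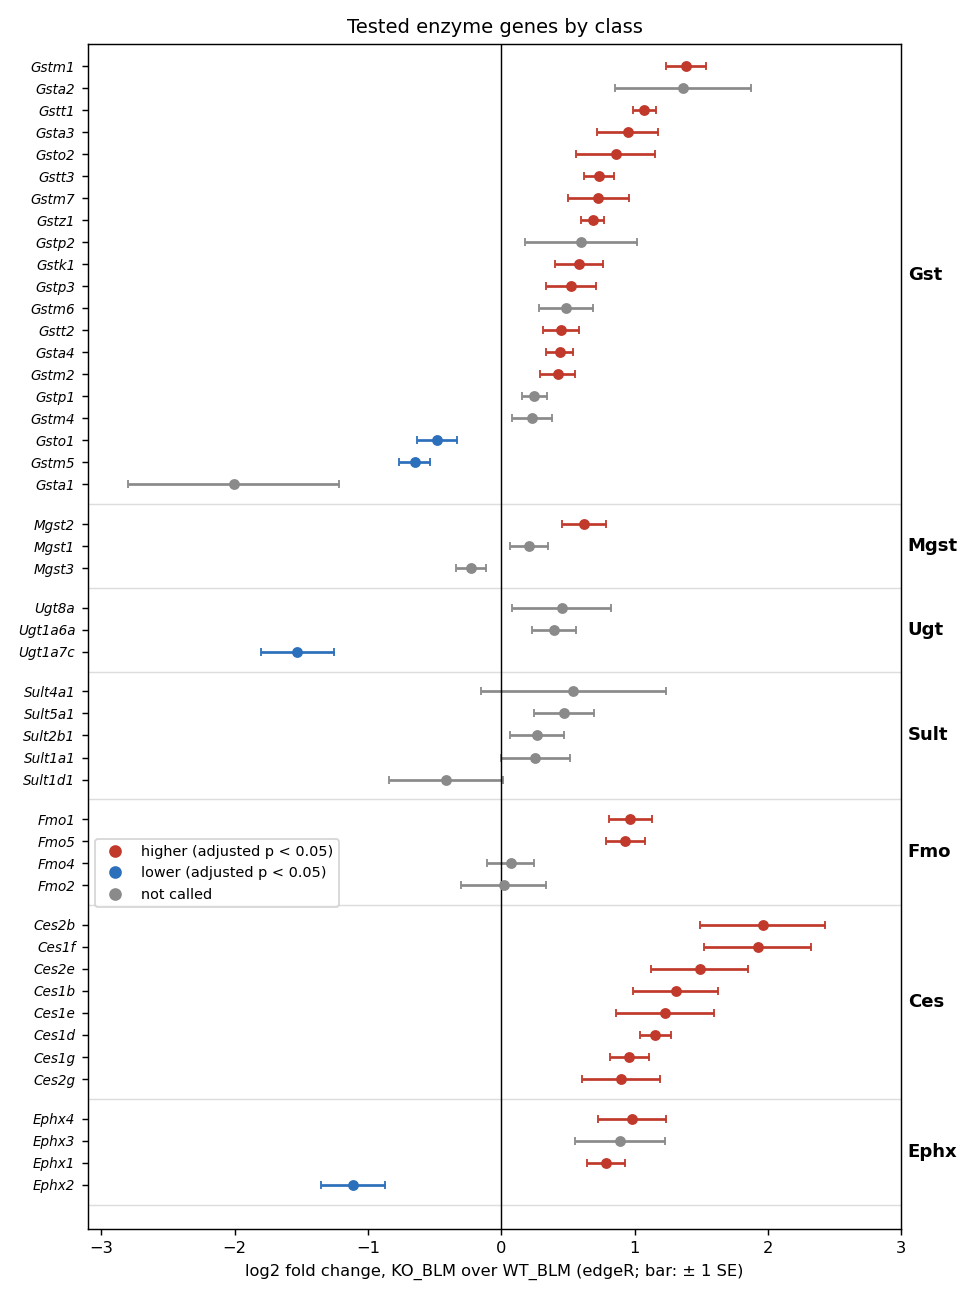
Log2 fold change of KO_BLM over WT_BLM (horizontal axis, bars of 1 SE from edgeR) for 47 of the tested enzyme genes, grouped by class, 4 libraries a group. Red marks the 25 genes called higher, blue the 4 called lower (Gsto1, Gstm5, Ugt1a7c and Ephx2) and grey genes not called. All 8 tested Ces genes are red, of which Ces1b, Ces2b and Ces2e passed the count filter through KO_BLM alone. Gsta2, Gstp2, Ephx3 and Ugt8a, in grey, also passed it that way.

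By total level the classes did not move alike. The Ces genes together rose from 226 ± 12.7 to 501 ± 71.8 CPM (mean ± SD, n = 4 in each group), a ratio of 2.22, with 90% of the sum from Ces1d. The Gst sum went from 833 ± 67.0 to 1314 ± 136 CPM, a ratio of 1.58, and the Ephx sum from 171 ± 28.7 to 287 ± 37.6 CPM, a ratio of 1.68. In these classes every KO_BLM library was above every WT_BLM library. The Mgst sums were 249 ± 44.8 and 274 ± 13 CPM, the Sult sums 77.8 ± 14.7 and 95.2 ± 27.0 CPM, and the Fmo sums 1035 ± 429 and 1221 ± 290 CPM, and these overlapped between the groups. The Ugt sum was small and pointed down, from 17.3 ± 3.25 to 12.7 ± 0.914 CPM, with the KO_BLM library 3 (14.0 CPM) above the lowest WT_BLM library (13.3 CPM). No test was made on these sums.

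Carboxylesterases hydrolyse ester and amide bonds in drugs, pesticides and lipids. Of the 18 Ces genes, 8 were tested, and all 8 were higher in KO_BLM, with a median log2 fold change of 1.27. The count filter asked for enough counts in at least 4 libraries. Ces1b (4 to 9 counts in WT_BLM, 13 to 18 in KO_BLM) passed it through KO_BLM alone. So did Ces2b (1 to 14 and 24 to 38) and Ces2e (9 to 45 and 58 to 80). These genes were tested because KO_BLM was high, so their direction adds nothing to the counts of higher genes or to the median. Ces1d, a lipid and xenobiotic esterase and by far the most abundant of them, measured 202, 177, 218 and 213 CPM in WT_BLM and 483, 528, 390 and 403 CPM in KO_BLM. The lowest KO_BLM library was well above the highest WT_BLM library. The fold was 2.23 (log2 1.16 ± 0.12 SE, adjusted p = 0.000114), and per length the level went from 99.8 ± 8.20 to 236 ± 29.8 FPKM. Ces1g, a liver-type carboxylesterase, measured 5.94, 5.75, 5.46 and 4.58 CPM in WT_BLM and 11.2, 10.9, 8.86 and 11.3 CPM in KO_BLM, without overlap (1.95-fold, log2 0.96 ± 0.14, adjusted p = 0.000935).

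The remaining Ces genes were of low abundance. Ces1f measured 1.76, 0.843, 0.911 and 1.09 CPM in WT_BLM and 6.06, 6.08, 1.98 and 3.39 CPM in KO_BLM (3.79-fold, log2 1.92 ± 0.40, adjusted p = 0.00457). Its KO_BLM libraries 1 and 2 stood clearly above 3 and 4, though all 4 exceeded every WT_BLM library. Ces2b, of the intestinal-type Ces2 subfamily, had the largest fold of the members called higher at 3.89, from 0.0545 to 0.770 CPM in WT_BLM to 1.25 to 2.09 CPM in KO_BLM (log2 1.96 ± 0.47, adjusted p = 0.00900). Its coding sequence is 91.27% identical to that of Ces2c, which had 7 counts in each group, so reads that match both may have been split or dropped and its value is uncertain. Ces2e (2.81-fold, adjusted p = 0.00983), Ces1b (2.48-fold, adjusted p = 0.00934) and Ces1e (2.34-fold, adjusted p = 0.0233) were likewise apart between the groups.

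Ces2g was the only called Ces gene whose groups overlapped. It measured 10.6, 20.4, 10.2 and 6.10 CPM in WT_BLM and 24.4, 22.7, 22.1 and 19.4 CPM in KO_BLM (1.87-fold, log2 0.90 ± 0.29, adjusted p = 0.0320), and WT_BLM library 2 lay among the KO_BLM values. Its adjusted p was 0.0786 without WT_BLM 1, 0.0764 without WT_BLM 3, 0.0667 without KO_BLM 1, 0.0661 without KO_BLM 2 and 0.0582 without KO_BLM 3 (0.00129 to 0.152 over all alternatives). Ces1e likewise had an adjusted p of 0.0518 without WT_BLM 3, 0.0638 without KO_BLM 1, 0.0704 without KO_BLM 2 and 0.0509 with the replicate number as a block (0.00472 to 0.303 over all alternatives). Ces1d, Ces1g and Ces2e were called higher in every alternative that tested them.

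The Ces genes lie in 2 clusters on mouse chromosome 8. Ces1a to Ces1h and Ces5a span 93020214 to 93535879 (GRCm38), where the 5 tested of 9 were higher, and Ces2a to Ces4a span 104734003 to 105150109, where the 3 tested of 9 were higher. Ces1b, Ces2b and Ces2e are among these, and passed the count filter through KO_BLM alone. Beside these values, adipocyte markers, a cell type known for Ces1d and Ces1f, summed to 5.65 to 8.52 CPM in WT_BLM and to 13.9, 21.4, 9.65 and 47.4 CPM in KO_BLM libraries 1 to 4. Of 3 tested adipocyte markers 2 were higher. Of these, Car3 passed the count filter through KO_BLM alone, so its direction adds nothing to this count. Cidec, a lipid droplet protein, was at 0.546 to 1.49 CPM in WT_BLM and at 6.83, 5.64, 2.66 and 4.07 CPM in KO_BLM libraries 1 to 4 (adjusted p = 0.00178), and Car3, a carbonic anhydrase, at 0.0536 to 0.220 CPM and at 0.771, 3.57, 0.886 and 12.2 CPM (adjusted p = 0.00526). Cidec is also on the alveolar macrophage list, where 4 of 13 markers were higher and 4 lower. The defining adipocyte gene Adipoq, not tested, was at 0.0496 to 0.0550 CPM in WT_BLM and 0.0551 to 2.35 CPM in KO_BLM. Ces1d is also a marker on the resident fibroblast and lipofibroblast list, from which it was left out. Of the 14 other genes of that list 9 were higher and 1 lower. Their sums were 4486 to 7162 CPM in WT_BLM and 6154 to 8269 CPM in KO_BLM. The part of adipocytes or of these fibroblasts in the Ces values was not tested.

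**Figure D2:**
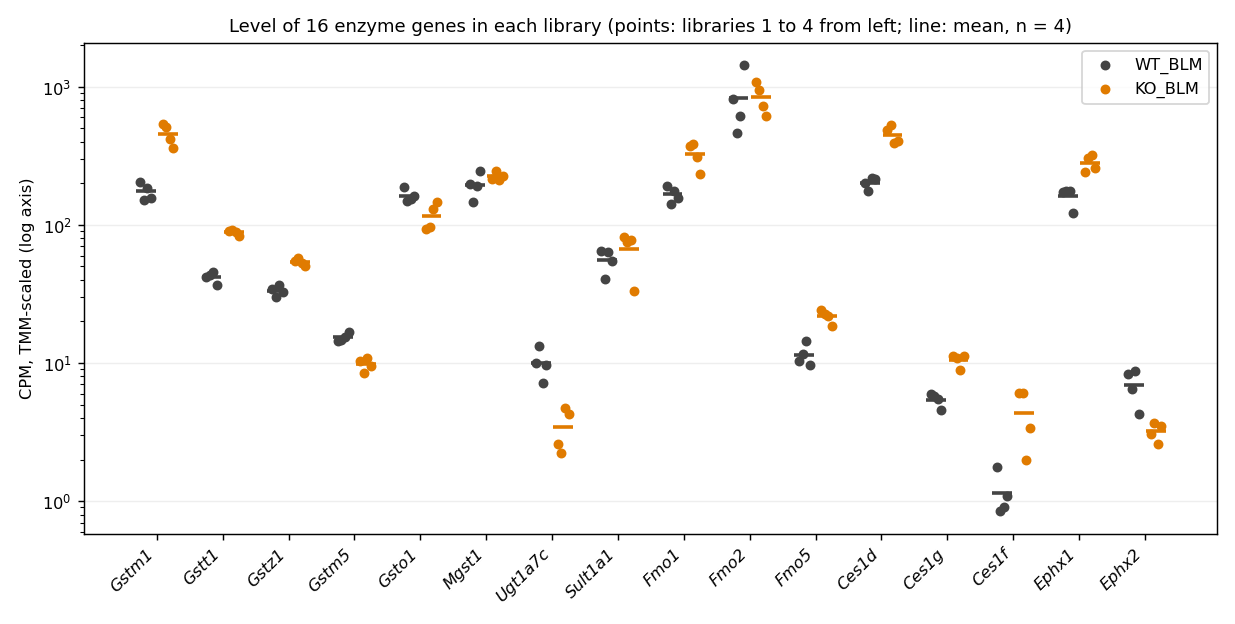
CPM (log axis) of 16 enzyme genes in each of the 4 WT_BLM (dark) and 4 KO_BLM (orange) libraries, points from left to right being libraries 1 to 4 and lines the group means. Ces1d, Gstm1 and Gstt1 separate without overlap upward and Ugt1a7c, Ephx2 and Gstm5 downward, whereas Fmo2, Mgst1 and Sult1a1 overlap.

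Glutathione S-transferases join glutathione to electrophiles such as epoxides and lipid aldehydes. Of the 22 Gst genes 20 were tested, 12 were higher, 2 were lower and 6 were not called, with a median log2 fold change of 0.55. Gsta2 and Gstp2, not called, passed the count filter through KO_BLM alone, so their direction adds nothing to this median. Gstm1, a mu-class enzyme of broad substrate range, measured 204, 152, 185 and 157 CPM in WT_BLM and 537, 512, 416 and 361 CPM in KO_BLM. Every KO_BLM library was far above the WT_BLM range (2.61-fold, log2 1.39 ± 0.15, adjusted p = 0.000136), and Gstm1 was the most abundant Gst gene per length in KO_BLM (139 ± 19.2 FPKM in WT_BLM, 385 ± 59.7 in KO_BLM). Gstt1, a theta-class enzyme that conjugates small halogenated compounds, measured 42.2, 43.5, 45.4 and 36.8 CPM in WT_BLM and 90.3, 91.8, 88.3 and 82.8 CPM in KO_BLM. The groups lay wide apart, and the SE was the smallest of the set (2.10-fold, log2 1.07 ± 0.08, adjusted p = 2.68e-05). Without KO_BLM library 2 the number of Gst genes called higher was 7.

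The promoter sequences of these genes are shown because the antioxidant and xenobiotic response elements are the textbook entry points of NRF2 and of the aryl hydrocarbon receptor. They are from RefSeq (GRCm38.p6), 5′ to 3′ on the gene's strand, and cover the 250 bases before a transcript start. Gsta3, an alpha-class gene that was also higher, carries a TGACNNNGC match (the antioxidant response element core), in capitals, 121 bases before the start. Gstm1 and Gstt1 carry no match to either motif in these windows.
Gsta3, chr1:21240335-21240584, plus strand: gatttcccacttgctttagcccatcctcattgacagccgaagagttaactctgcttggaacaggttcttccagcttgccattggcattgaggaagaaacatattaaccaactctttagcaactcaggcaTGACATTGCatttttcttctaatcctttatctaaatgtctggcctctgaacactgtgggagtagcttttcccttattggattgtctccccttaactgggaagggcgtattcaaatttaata
Gstm1, chr3:108017974-108018223, minus strand: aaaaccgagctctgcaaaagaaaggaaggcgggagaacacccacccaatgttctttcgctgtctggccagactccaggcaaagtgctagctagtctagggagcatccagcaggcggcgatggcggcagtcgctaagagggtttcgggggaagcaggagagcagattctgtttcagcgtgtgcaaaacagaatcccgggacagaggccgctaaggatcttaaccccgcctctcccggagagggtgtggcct
Gstt1, chr10:75797732-75797981, minus strand: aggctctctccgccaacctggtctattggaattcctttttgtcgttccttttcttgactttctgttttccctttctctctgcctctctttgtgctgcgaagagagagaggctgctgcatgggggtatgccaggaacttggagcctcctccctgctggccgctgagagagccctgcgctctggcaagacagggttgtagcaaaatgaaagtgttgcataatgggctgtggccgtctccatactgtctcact

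Matches were sought on both strands over 250 bases before to 50 after each start. TGACNNNGC was present in 4 of the 39 tested members that the table holds (10.26%) and in 12.392% of all 32851 promoters. TNGCGTG, the xenobiotic response element core, was present in 2 of 39 (5.13%) and in 5.065% of all promoters. A member counted if any of its promoters matched, whereas all promoters were counted singly, so these shares are of unlike units. Counted singly, the 72 members in the promoter table have 87 promoters, of which 4 hold TGACNNNGC and 3 hold TNGCGTG. Besides Gsta3, TGACNNNGC occurs in the genes below. Of these Gstm5 was lower, Gstm7 higher and Mgst1 not called. Of the 250 bases before the start, 250 were annotated exon for Gstm5, 199 for Gstm7 and 211 for Mgst1, against 0 for Gsta3. The other Gstm7 start, further upstream, has no match in its window. A match is a description of the letters and not of binding.
Gstm5, chr3:107895802-107895830, plus strand: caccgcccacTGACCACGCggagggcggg
Gstm7, chr3:107931725-107931753, minus strand: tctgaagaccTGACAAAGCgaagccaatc
Mgst1, chr6:138140461-138140489, plus strand: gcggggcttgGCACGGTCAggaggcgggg
The 2 tested members with TNGCGTG were Gsta2 and Sult1d1, neither of which was called. In Sult1d1, as in Mgst1, the capitals mark the motif as read on the opposite strand.
Gsta2, chr9:78347138-78347164, minus strand: cttactaaagTAGCGTGcacactcctc
Sult1d1, chr5:87569037-87569063, minus strand: ctgttaacaaCACGCAAaacatggagg

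Within the mu class, neighbours moved in opposite directions. The 7 Gstm genes lie on chromosome 3 between 107895854 and 108045179 in the order Gstm5, Gstm7, Gstm6, Gstm3, Gstm2, Gstm1, Gstm4. Gstm5, at one end, measured 14.3, 14.7, 15.4 and 16.8 CPM in WT_BLM and 10.3, 8.43, 10.8 and 9.54 CPM in KO_BLM, without overlap and 1.57-fold lower (log2 -0.65 ± 0.12, adjusted p = 0.00235). Its neighbour Gstm7 was higher, with 3.52, 3.27, 4.29 and 2.07 CPM in WT_BLM and 6.67, 5.36, 5.06 and 4.75 CPM in KO_BLM (log2 0.73 ± 0.23, adjusted p = 0.0293). Gstm5 shares 178 exon bases, 13.93% of its exons, with an antisense transcript, and whether counting used strand is not given in the sources used here. Its coding sequence is 70.68% identical to that of Gstm7 and 65.57% to that of Gstm1.

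Gstm2, a second abundant mu gene, measured 132, 105, 128 and 113 CPM in WT_BLM and 192, 174, 147 and 127 CPM in KO_BLM, where library 4 fell inside the WT_BLM range (1.34-fold, log2 0.42 ± 0.13, adjusted p = 0.0290). Its adjusted p was 0.0704 without WT_BLM 2, 0.0619 without WT_BLM 4, 0.0755 without KO_BLM 1 and 0.0775 without KO_BLM 2 (0.00537 to 0.261 over all alternatives). Gstm7 had 0.0566 without WT_BLM 1, 0.0537 without WT_BLM 2, 0.0799 without KO_BLM 1 and 0.0608 without KO_BLM 2 (0.00944 to 0.182). Gstm4 (log2 0.23 ± 0.15, adjusted p = 0.238) and Gstm6 (log2 0.48 ± 0.20, adjusted p = 0.0801) were not called. Gstm1 and Gstm5 kept their calls in all 22 alternatives.

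**Figure D3:**
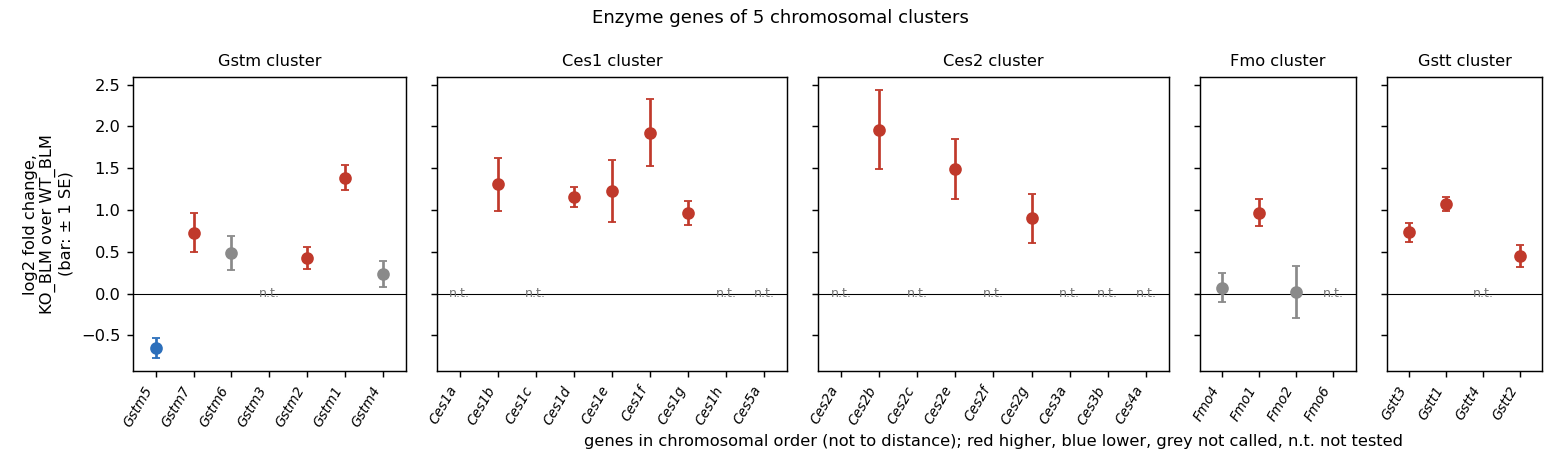
Log2 fold change of KO_BLM over WT_BLM (vertical axis, bars of 1 SE, 4 libraries a group) for genes of 5 chromosomal clusters in map order; n.t. marks genes not tested. In the Gstm cluster Gstm5 lies below 0 and Gstm1 highest, all tested genes of the Ces and Gstt clusters are red, and in the Fmo cluster Fmo1 alone is.

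All 3 tested theta genes, on chromosome 10 between 75774117 and 75837419, were higher. Gstt3 measured 31.1, 26.9, 37.6 and 31.2 CPM in WT_BLM and 55.0, 56.9, 52.5 and 45.9 CPM in KO_BLM (1.66-fold, log2 0.73 ± 0.11, adjusted p = 0.00107), and the groups did not overlap. Gstt2 went from 17.2 ± 2.10 to 23.4 ± 3.52 CPM (1.36-fold, adjusted p = 0.0218) with 1 value inside the other range, and its adjusted p was 0.0581 without WT_BLM 1 and 0.0526 without KO_BLM 3 (0.00890 to 0.0822 over all alternatives). Gstt3 shares 13.64% of its exon bases with a predicted gene on the same strand.

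Gstz1, the maleylacetoacetate isomerase of tyrosine breakdown, on chromosome 12, measured 34.4, 30.0, 36.9 and 32.6 CPM in WT_BLM and 54.4, 57.8, 53.1 and 50.5 CPM in KO_BLM (1.61-fold, log2 0.69 ± 0.09, adjusted p = 0.000346). The groups lay far apart for a fold of this size. Gstk1, a mitochondrial and peroxisomal enzyme, was 1.5-fold higher (log2 0.58 ± 0.18, adjusted p = 0.0285), with overlapping groups. Its adjusted p was 0.0572 without WT_BLM 4, 0.0737 without KO_BLM 1 and 0.0697 without KO_BLM 2 (0.00836 to 0.225).

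Alpha-class enzymes act on lipid peroxidation products. Gsta4, which conjugates hydroxynonenal, measured 45, 32.4, 38.5 and 35.7 CPM in WT_BLM and 50.4, 54.8, 49.7 and 50.5 CPM in KO_BLM (1.35-fold, log2 0.44 ± 0.10, adjusted p = 0.00838), without overlap. Gsta3, the most abundant alpha gene and one known from club cells, measured 64.3, 44.6, 69.1 and 102 CPM in WT_BLM and 154, 160, 120 and 107 CPM in KO_BLM (1.93-fold, log2 0.95 ± 0.23, adjusted p = 0.00912). The highest WT_BLM library, 4, came close to the lowest of KO_BLM. Beside this, club and goblet markers summed to 4034 to 11080 CPM in WT_BLM and 13340 to 24930 CPM in KO_BLM, with 5 of 12 tested markers higher and 0 lower. The other 7 were not called, and over all tested genes 20.7% were higher and 20.8% lower. Scgb1a1 alone made up 77.06% of the club and goblet sum over all 8 libraries. The part of these cells in the Gsta3 value was not tested.

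Gsta1 and Gsta2, whose coding sequences are 97.61% identical, gave opposite and uncertain values. Gsta1 measured 0.385, 0.595, 0.750 and 1.80 CPM in WT_BLM and 0.0551, 0.0558, 0.678 and 0.0522 CPM in KO_BLM (log2 -2.01 ± 0.79, adjusted p = 0.0654). KO_BLM library 3 alone lay within the WT_BLM range, and without it the log2 fold change was -3.86 (adjusted p = 0.00673, 0.00428 to 0.316 over all alternatives). Gsta2 measured 0.990, 0.446, 0.750 and 1.03 CPM in WT_BLM and 3.08, 3.35, 0.678 and 1.20 CPM in KO_BLM (log2 1.36 ± 0.51, adjusted p = 0.0551). Here too library 3 was the exception, and the adjusted p was 0.0166 without it and 0.0461 without KO_BLM 4 (0.00440 to 0.734). Reads that match both genes may have been split or dropped, so neither value is certain.

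Calls in the pi and omega classes lay near the threshold. Gstp1, the pi-class enzyme best known from tumours, measured 69.6, 83.3, 76.3 and 69.8 CPM in WT_BLM and 99.1, 84.8, 90.9 and 80.7 CPM in KO_BLM, with library 4 inside the WT_BLM range (log2 0.25 ± 0.09, adjusted p = 0.0542). The value was near the threshold, at 0.0338 without WT_BLM 2 and 0.0401 without KO_BLM 4 (0.0200 to 0.222). Gstp1 is 98.1% identical in coding sequence to Gstp2, which was at 1.01 ± 0.626 and 1.53 ± 0.388 CPM and not called. Gstp3 was 1.44-fold higher (adjusted p = 0.0455), but its adjusted p was 0.0959, 0.102 and 0.0553 without WT_BLM 1, 2 and 3, and 0.0570, 0.0925 and 0.125 without KO_BLM 1, 2 and 3 (0.0137 to 0.136), and 0.0642 with the replicate number as a block.

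Gsto1, an omega-class thioltransferase that also reduces dehydroascorbate, was the abundant Gst gene that fell. It measured 187, 149, 155 and 161 CPM in WT_BLM and 93.0, 96.2, 130 and 146 CPM in KO_BLM, without overlap (1.40-fold lower, log2 -0.48 ± 0.15, adjusted p = 0.0274). KO_BLM libraries 1 and 2 were the low ones, and libraries 3 and 4 approached WT_BLM. Its adjusted p was 0.0775 without WT_BLM 1, 0.0645 without KO_BLM 1, 0.0836 without KO_BLM 2 and 0.0747 with library totals alone (0.00199 to 0.195). Beside it, markers of monocyte-derived macrophages, summed, were 7945 to 9567 CPM in WT_BLM and 1415, 1713, 4206 and 3996 CPM in KO_BLM libraries 1 to 4, with 10 of 14 markers lower and 1 higher. Spp1 alone made up 45.75% of this sum. Transitional alveolar markers summed to 2979 to 3674 CPM in WT_BLM and to 1623, 1687, 2148 and 2214 CPM in KO_BLM libraries 1 to 4. Of 11 such markers 9 were lower and 0 higher. The part of the cells of either list in the Gsto1 value was not tested. Gsto2, the neighbour of Gsto1 on chromosome 19, was scarce, at 0.759 ± 0.155 and 1.38 ± 0.386 CPM, and called higher (adjusted p = 0.0395). Its adjusted p was 0.0660 to 0.108 when any of WT_BLM 1, 2 and 4 or KO_BLM 2, 3 and 4 was left out (0.0240 to 0.220). With the replicate number as a block it was 0.0617.

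Microsomal glutathione S-transferases are membrane proteins that conjugate glutathione and, in part, form leukotriene C4. Of the 3 genes, Mgst2 was higher and Mgst1 and Mgst3 were not called. Over all tested genes 41.5% were called. Mgst2, a leukotriene C4-forming member, measured 3.96, 4.56, 4.61 and 4.96 CPM in WT_BLM and 6.56, 5.58, 8.13 and 7.51 CPM in KO_BLM (1.54-fold, log2 0.62 ± 0.17, adjusted p = 0.0149), without overlap. Mgst1, among the most abundant genes of the set, measured 197, 145, 192 and 247 CPM in WT_BLM and 217, 245, 212 and 228 CPM in KO_BLM, with KO_BLM inside the WT_BLM range (log2 0.21 ± 0.14, adjusted p = 0.263, and 0.0458 without WT_BLM 4; 0.0278 to 0.572 over all alternatives). Mgst3 measured 50.3, 43.4, 51.3 and 51.0 CPM in WT_BLM and 37.6, 40.8, 50.6 and 38.3 CPM in KO_BLM (log2 -0.23 ± 0.11, adjusted p = 0.120). KO_BLM library 3 alone reached the upper WT_BLM values, and the adjusted p without it was 0.0217 (0.0217 to 0.487).

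UDP-glycosyltransferases attach sugars, in the Ugt1 and Ugt2 families mainly glucuronic acid. Of 16 Ugt genes only 3 could be tested, 1 was lower and none higher. Ugt1a7c measured 10.1, 13.2, 7.12 and 9.64 CPM in WT_BLM and 2.59, 2.23, 4.74 and 4.28 CPM in KO_BLM, without overlap and 2.89-fold lower (log2 -1.53 ± 0.28, adjusted p = 0.00228). KO_BLM libraries 1 and 2 were again the lowest. Ugt1a6a, from the same locus, did not fall with it: it measured 5.66, 6.45, 4.61 and 6.04 CPM in WT_BLM and 8.81, 7.48, 7.46 and 6.21 CPM in KO_BLM (log2 0.39 ± 0.17, adjusted p = 0.0799), with KO_BLM library 4 inside the WT_BLM range. The difference between the pair was not tested.

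The Ugt1a genes on chromosome 1 (88095001 to 88220002) each have an exon of their own spliced to common downstream exons. Ugt1a6a and Ugt1a7c share 2170 exon bases, 50.32% and 51.43% of their exons, so their counts depend on how reads in the common exons were assigned. Ugt1a6a is 98.37% identical in coding sequence to Ugt1a6b, which had 36 counts over the WT_BLM and 27 over the KO_BLM libraries and was not tested. Ugt8a, which makes galactosylceramide, was at 0.820 ± 0.298 and 1.13 ± 0.386 CPM and not called (adjusted p = 0.347). All 7 Ugt2 genes of the chromosome 5 cluster were too low to test.

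Cytosolic sulfotransferases transfer sulfate to phenols, steroids and amines. Of 17 Sult genes 5 were tested and 0 were called by edgeR, with 0 at an unadjusted p below 0.05. DESeq2 also called 0 and limma-voom with quality weights 1. Sult1a1, the phenol sulfotransferase and the main one here, measured 64.7, 40.3, 64.0 and 55.0 CPM in WT_BLM and 81.8, 74.9, 77.1 and 33.4 CPM in KO_BLM. KO_BLM libraries 1 to 3 were above every WT_BLM library and library 4 was below all of them (log2 0.25 ± 0.26, adjusted p = 0.450). Without KO_BLM 4 the log2 fold change was 0.47 and the adjusted p 0.0377 (0.0377 to 0.971 over all alternatives). In Sult5a1 too KO_BLM library 4 was the lowest of its group, with 15, 10.5, 18.8 and 20 CPM in WT_BLM and 24.9, 26.4, 23.1 and 14.8 CPM in KO_BLM (log2 0.47 ± 0.23, adjusted p = 0.118, and 0.0385 without KO_BLM 4; 0.0136 to 0.558). Sult2b1, which sulfates cholesterol, was at 2.04 ± 0.203 and 2.46 ± 0.357 CPM and Sult1d1, which acts on catecholamines, at 2.77 ± 1.20 and 2.07 ± 0.929 CPM, neither called. Sult4a1 had a log2 fold change of 0.54 ± 0.69.

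Flavin-containing monooxygenases oxidise nitrogen and sulfur atoms of drugs. Of 5 tested, Fmo1 and Fmo5 were higher, and Fmo2 and Fmo4 were not called. The share called was 40%, close to the 41.5% of all tested genes. Fmo1 measured 190, 142, 177 and 157 CPM in WT_BLM and 374, 385, 312 and 233 CPM in KO_BLM, without overlap (1.96-fold, log2 0.97 ± 0.16, adjusted p = 0.00151). Fmo5 measured 10.3, 11.6, 14.4 and 9.64 CPM in WT_BLM and 24.4, 22.7, 21.9 and 18.7 CPM in KO_BLM (1.91-fold, log2 0.93 ± 0.14, adjusted p = 0.00111), also without overlap. Both calls held in all 22 alternatives.

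Fmo2, the main pulmonary form in many mammals and the most abundant gene of the set by count, was not called. It measured 817, 464, 616 and 1437 CPM in WT_BLM and 1083, 949, 726 and 619 CPM in KO_BLM. WT_BLM alone spanned the whole KO_BLM range, and its library 4 was the highest of all 8 (log2 0.02 ± 0.32, adjusted p = 0.969, 0.131 to 0.992 over all alternatives). Its sign turned without WT_BLM 2 (-0.18), WT_BLM 3 (-0.10), KO_BLM 1 (-0.12) or KO_BLM 2 (-0.05). Fmo4 was nearly level, with a log2 fold change of 0.07 ± 0.17 (-0.02 without KO_BLM 1). Fmo4, Fmo1, Fmo2 and Fmo6 lie close together on chromosome 1 and Fmo5 lies on chromosome 3.

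Epoxide hydrolases open reactive or signalling epoxides with water. The pair of best-known members went opposite ways. Ephx1, the microsomal enzyme that hydrolyses epoxides of drugs and polycyclic hydrocarbons, measured 174, 177, 175 and 122 CPM in WT_BLM and 240, 304, 319 and 256 CPM in KO_BLM (1.73-fold higher, log2 0.79 ± 0.14, adjusted p = 0.00216). Ephx2, the soluble enzyme that hydrolyses epoxides of arachidonic acid, measured 8.30, 6.50, 8.79 and 4.25 CPM in WT_BLM and 3.08, 3.68, 2.61 and 3.49 CPM in KO_BLM (2.16-fold lower, log2 -1.11 ± 0.24, adjusted p = 0.00576). In both, the groups did not overlap, WT_BLM library 4 was the lowest of its group, and the call held in all 22 alternatives. Per length Ephx1 was at 90.8 ± 16.8 and 166 ± 23.1 FPKM and Ephx2 at 2.62 ± 0.803 and 1.28 ± 0.196 FPKM.

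The other two epoxide hydrolase genes were scarce. Ephx4 measured 0.880, 1.04, 1.12 and 0.980 CPM in WT_BLM and 1.38, 2.06, 1.98 and 2.56 CPM in KO_BLM (1.98-fold, log2 0.98 ± 0.25, adjusted p = 0.0127), without overlap. Ephx3 had a log2 fold change of 0.89 ± 0.34 (adjusted p = 0.0563), with overlapping groups, and reached 0.0379 without WT_BLM 1, 0.0479 without KO_BLM 4 and 0.0330 with the replicate number as a block (0.0270 to 0.261 over all alternatives). The 4 genes lie on chromosomes 1, 14, 17 and 5.

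The 38 members that were not tested had 1 to 63 counts over all 8 libraries (median 4), and 31 of them had 10 or fewer. They comprised 13 Ugt, 12 Sult, 10 Ces, 2 Gst and 1 Fmo genes, among them the liver-type Sult2a and Ugt2b families. Those with the most counts were Ugt1a6b, Gstm3 with 15 in WT_BLM and 31 in KO_BLM, and Fmo6 with 24 and 14. Sult6b1 had 0 counts in WT_BLM and 8 in KO_BLM. Ces1h had 4 and 15, and was the member of this group whose CPM did not overlap between the genotypes, a point chosen after its values were seen. WT_BLM library 2 and KO_BLM library 3 each had 2 counts of Ces1h, so they were apart (0.0992 and 0.104 CPM) through library scaling alone. None of the 38 entered the edgeR test used here.

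Within KO_BLM, the enzyme genes split the libraries unevenly. In 21 of the 48 tested genes (43.8%) KO_BLM libraries 1 and 2 were both above libraries 3 and 4, and in 6 (12.5%) both were below. Over all tested genes these shares were 25.3% and 25.7%. Alveolar type 2 markers summed to 39210, 36530, 29040 and 26140 CPM in KO_BLM libraries 1 to 4, against 9886 to 14080 CPM in WT_BLM. Club and goblet markers summed to 24930, 24730, 13340 and 15850 CPM. Over all 8 libraries, Sftpc made up 53.32% of the alveolar type 2 sum and Scgb1a1 77.06% of the club and goblet sum. In both sums libraries 1 and 2 were above 3 and 4, as they were in Ces1f, Gstm1 and Fmo1. The sums of endothelial, resident fibroblast and lipofibroblast, and smooth muscle and pericyte markers had this order too. Others had libraries 1 and 2 below 3 and 4, among them monocyte-derived macrophage, transitional alveolar, adventitial fibroblast and lymphocyte markers. The part of any of these cells in the enzyme values of KO_BLM was not tested.

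Other marker lists also differed between the groups. Ciliated markers summed to 176 to 267 CPM in WT_BLM and 529 to 693 CPM in KO_BLM, with 12 of 13 higher. Activated fibroblast markers, summed, were 4209 to 4749 CPM in WT_BLM and 1163 to 1297 CPM in KO_BLM, with 11 of 11 lower, while 9 of 14 markers of resident fibroblasts and lipofibroblasts were higher and 1 lower, with sums of 4486 to 7162 and 6154 to 8269 CPM. Lymphocyte markers were higher in 12 of 14, with sums of 117 to 496 CPM in WT_BLM and 317 to 1225 CPM in KO_BLM. Jchain made up 60.25% of the lymphocyte sum and Tppp3 52.08% of the ciliated sum. Col1a1 made up 49.99% of the activated fibroblast sum and Gpx3 35.19% of the resident fibroblast and lipofibroblast sum. The part of any of these cells in the enzyme values was not tested.

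Genes that control, feed and follow conjugation were taken from lists and set beside the enzymes, with no test between lists. Over all tested genes 20.7% were higher and 20.8% lower. Of 19 regulators and targets of NRF2 outside the set, 1 was higher and 8 were lower (median log2 fold change -0.37). The lower ones included Srxn1, the sulfiredoxin (from 89.3 ± 14.7 to 46.9 ± 8.85 CPM, adjusted p = 0.00152), Akr1b8, an aldo-keto reductase (from 87.7 ± 6.98 to 40.6 ± 14.9 CPM, adjusted p = 0.00387), and Txnrd1, the cytosolic thioredoxin reductase (from 207 ± 63.5 to 110 ± 11.8 CPM, adjusted p = 0.00417). Aldh3a1 was the one higher, from 7.75 ± 1.55 to 16.2 ± 3.62 CPM (adjusted p = 0.00239). Nfe2l2, which encodes NRF2, was at 160 ± 27.2 and 206 ± 38.0 CPM (adjusted p = 0.0782), its inhibitor Keap1 at 72.8 ± 1.99 and 76.2 ± 7.40 CPM (adjusted p = 0.554) and Nqo1 at 11.5 ± 4.81 and 7.58 ± 1.61 CPM (adjusted p = 0.102), none called. Without KO_BLM libraries 1 and 2 the count of lower genes in this list was 2.

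Of 15 tested genes for sulfate and UDP-sugar donors, 7 were lower and 0 higher (median -0.40): Ugdh, which makes UDP-glucuronic acid, went from 61.2 ± 4.23 to 42.4 ± 4.33 CPM (adjusted p = 0.00194), Papss2, which makes the sulfate donor, from 51.0 ± 4.48 to 33.0 ± 5.43 CPM (adjusted p = 0.00331), and Uxs1, which makes UDP-xylose, from 54.6 ± 6.26 to 28.1 ± 2.58 CPM (adjusted p = 0.000151). Of 14 tested efflux pumps and transporters 8 were lower and 1 higher (median -0.53). Abcc1, the exporter of glutathione conjugates, went from 66.9 ± 8.39 to 43.5 ± 2.78 CPM (adjusted p = 0.00126), and the uptake transporter Slco4a1 fell 2.25-fold (adjusted p = 0.00184).

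Of 20 glutathione genes 5 were higher and 4 lower (median 0.03), shares close to those over all tested genes. The extracellular peptidases Dpep1 (4.20-fold higher, adjusted p = 0.000382) and Dpep2 (2.77-fold lower, adjusted p = 0.00132) moved in opposite directions, Ggt5, which cleaves leukotriene C4, was 2.24-fold higher (adjusted p = 0.000461), and the peroxidases Gpx3 (adjusted p = 0.00596) and Gpx1 (adjusted p = 0.0134, and 0.0502 without KO_BLM 2) were lower. The higher count was 2 without WT_BLM 3, KO_BLM 1 or KO_BLM 2, and 3 without WT_BLM 1, WT_BLM 4 or KO_BLM 4, and the lower count was 2 without KO_BLM 2.

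Of 22 phase I genes, which encode oxidising enzymes of the first step, 16 were higher and 1 lower (median 0.95), among them Aldh1a7 (2.96-fold, adjusted p = 9.71e-05) and the aldehyde oxidase Aox3 (4.79-fold, adjusted p = 0.000192). Of 14 tested conjugating enzymes outside the set 5 were higher and 2 lower (median 0.13). The methyltransferases Inmt (from 298 ± 78.9 to 1347 ± 460 CPM), Hnmt and Mettl7a1 rose, and Nnmt fell from 25.6 ± 3.12 to 13.7 ± 1.56 CPM (adjusted p = 0.000521). Tpmt, the other lower gene, lost its call when any single library but WT_BLM 2 was left out (adjusted p of 0.0533 to 0.134) and with the replicate number as a block (0.0765), leaving 1. Inmt is also on the resident fibroblast list.

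Of 12 tested xenobiotic receptors and partners 3 were higher and 3 lower (median -0.02). Nr1i2, called higher, averaged 0.449 CPM in WT_BLM, and Nr1h4, called lower, 0.400 CPM in KO_BLM. Neither passed the count filter on its low group alone, so their directions add nothing to these counts. Vdr, the vitamin D receptor, was 1.95-fold lower (adjusted p = 0.000507), and Nr1h3 and Ppara were higher (adjusted p = 0.00842 and 0.0129). The adjusted p of Nr1h4 was 0.0504 to 0.112 without any 1 library but WT_BLM 3. That of Tiparp was 0.0601 to 0.109 without WT_BLM 1, WT_BLM 4 or any 1 KO_BLM library, and that of Nr1i2 was 0.0585 to 0.101 without WT_BLM 1, 2 or 4 or KO_BLM 3 or 4. With the replicate number as a block the adjusted p was 0.0867 for Nr1h4 and 0.0699 for Nr1i2. The count of lower genes was 1 without any one of WT_BLM 1, WT_BLM 4 or the 4 KO_BLM libraries. Ahr was at 69.4 ± 13.2 and 84.9 ± 12.9 CPM (adjusted p = 0.135, and 0.0248 without WT_BLM 2), not called, while its target Cyp1a1 was higher in all 4 KO_BLM libraries than in any WT_BLM library. Tiparp, on the same list as Ahr, was called lower, with overlapping groups. It was at 46.1 ± 13.5 and 32.2 ± 1.91 CPM (adjusted p = 0.0426). No list of Ahr targets was among those used here. Ahrr and Nr1i3 were too low to test.

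**Figure D4:**
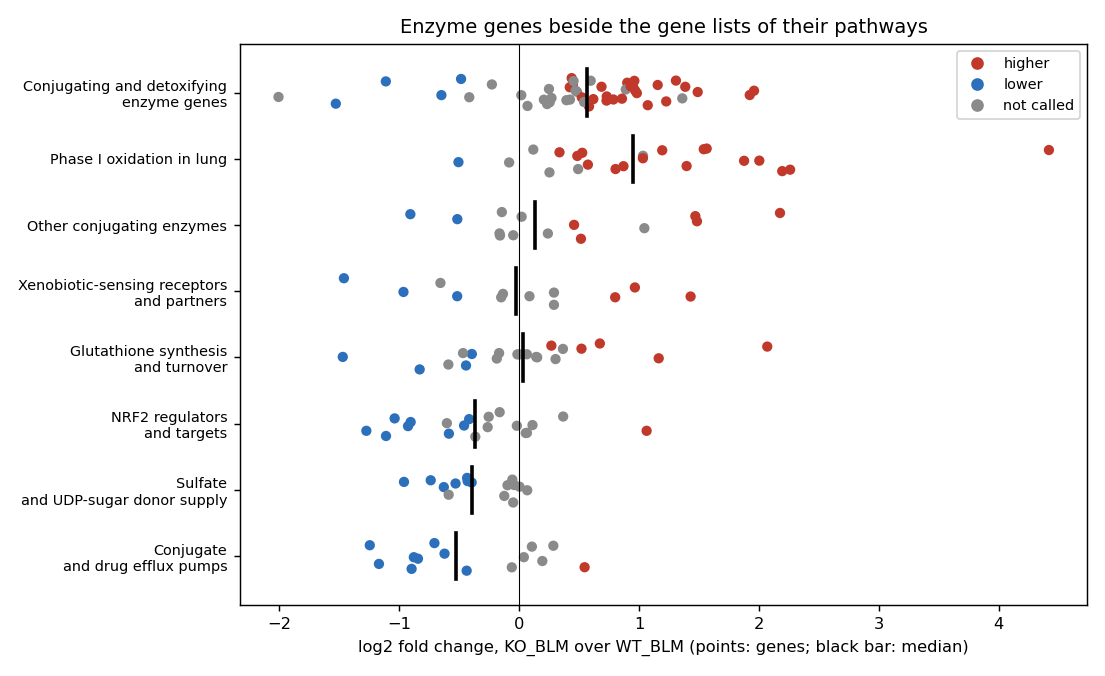
Log2 fold change of KO_BLM over WT_BLM (horizontal axis) for the tested genes of the enzyme set and of 7 lists of the same pathway, with points coloured by call and black bars at the medians. The medians of the enzyme set (0.56) and of phase I oxidation (0.95) lie to the right, and those of NRF2 targets (-0.37), donor supply (-0.40) and efflux pumps (-0.53) to the left of 0. The enzyme set includes genes that passed the count filter through KO_BLM alone.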

How the data were processed

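Lung RNA of 8 libraries was extracted with TRIzol and made into stranded poly(A) libraries, per the labels' protocols. Raw read counts for each gene symbol and FPKM were deposited by the authors. Trimmomatic, HTSeq, Cufflinks, DESeq and mm10 are named in the submitters' processing notes. The sources used here do not give the aligner, annotation or strand setting. The deposited FPKM values equalled count over column total and gene length (100% within a relative tolerance of 1e-06) and served for levels per length and as alternatives. The columns of other samples numbered 0.

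Counts were tested with edgeR 4.0.16 in R 4.3.3 (TMM, filterByExpr with minimum count 10 and total 15, robust quasi-likelihood F test, Benjamini-Hochberg adjustment at 0.05). The SE is the absolute log2 fold change divided by the root of F. The biological coefficient of variation was 16.6%. Replicates are 4 libraries a group. Chi-square per degree of freedom between libraries of a group was 7.52 to 58.6, so none was counted as a repeat. Coordinates come from the RefSeq table of GRCm38 (all 86 members matched), promoters from RefSeq GRCm38.p6 (72 members matched), and coding identity and shared exons from the GENCODE annotation of GRCm38.

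Alternatives were other scalings, filters, DESeq2 1.42.0, limma 3.58.1 (voom, and log2 of FPKM plus 1 or 0.1), a block for the replicate number, a fit with no robust step, one without the top 20 genes by abundance, and the omission of single libraries. Leaving out 2 KO_BLM libraries at once was added after seeing the data. The steps were tested on simulated data. The enzyme set, the gene lists and the tests were chosen with earlier results of these data known. Named in full were, per class, the 2 members of highest mean FPKM and the called members of smallest p (up to 5 a direction), and per pathway list up to 3 called genes a direction plus 6 preset genes. The other tested members were also named, after their values were seen, except that 1 is not reported here.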

Additional observations from a re-analysis of the deposited data

Results flagged for a closer look

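In each tested enzyme gene and group, the 4 libraries were checked for a highest or lowest value far from the other 3 (Dixon's ratio of gap to range, at its 95% critical value). This flagged 7 of 96 groups (7.29%), and chance alone flags about 1 in 20, so the number is not far from that. In WT_BLM, Ephx1 was lowest in library 4 at 122.5 CPM, with the others between 174.2 and 177.0. Mgst3 was lowest in library 2 at 43.35 CPM (others 50.32 to 51.27), and Fmo4 was highest in library 1 at 9.679 CPM (others 6.745 to 6.917). In KO_BLM, Sult1a1 was lowest in library 4 at 33.37 CPM (others 74.94 to 81.81), and Ces1g was lowest in library 3 at 8.863 CPM (others 10.94 to 11.32). Gsta4 was highest in library 2 at 54.79 CPM (others 49.74 to 50.53). Gsta1 was highest in library 3 at 0.6777 CPM (others 0.05215 to 0.0558).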

How the results depend on the processing

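Over 22 alternatives, 13 of the 29 called members kept their call in every alternative that tested them (Ces1d, Ces1g, Ces2e, Ephx1, Ephx2, Fmo1, Fmo5, Gstm1, Gstm5, Gstt1, Gstt3, Gstz1 and Ugt1a7c), 16 lost it in at least 1 and 0 turned direction. Of 18 members not called, 10 were called in at least 1 alternative and 4 turned direction in at least 1. Beside the Fmo2 and Fmo4 values above (-0.1827, -0.1044, -0.1244, -0.0459 and -0.0248; up to 0.4146 for Fmo2 and 0.2107 for Fmo4 with another library left out), Sult4a1 was at -0.2345 with limma-voom and -0.9983 without both KO_BLM libraries 3 and 4. Without both KO_BLM libraries 1 and 2, the log2 fold change was -0.3123 for Fmo2, -0.0856 for Fmo4, -0.0202 for Sult1a1 and -0.0447 for Keap1, and the summed Fmo level turned to -0.0744 from 0.2383. The summed Ces level, 1.1498, was 0.9654 without KO_BLM 1 and 2 and 1.3132 without 3 and 4.

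Without KO_BLM libraries 1 and 2, 1757 genes were higher and 1645 lower, 13 members were higher, and the counts were 5 higher and 1 lower for Gst, 3 higher for Ces, 2 lower for NRF2 genes, 2 higher and 2 lower for glutathione genes, 4 lower for donor supply, 0 higher and 4 lower for efflux, 3 higher and 1 lower for other conjugating enzymes, and 1 higher and 1 lower for receptors. Without libraries 3 and 4, Mgst had 0 higher and 1 lower, Ephx 1 higher, glutathione 3 higher and other conjugating enzymes 1 lower. Both settings leave 2 KO_BLM libraries, so fewer samples are tested. With limma on filtered FPKM, 2005 (pseudocount 1) or 1998 (pseudocount 0.1) genes were lower, with 1 Ephx and 1 receptor gene higher and 2 efflux genes higher. Under all 3 FPKM fits and library totals alone, 1 Gst, 1 receptor and 1 other conjugating gene were lower and 1 Ugt gene higher; library totals also gave 2 efflux genes higher. Unfiltered FPKM gave 1 Sult gene higher and 2 glutathione genes lower. With limma-voom, 2 Mgst, 1 Ugt, 1 Sult and 2 efflux genes were higher and 1 Mgst lower. The strict filter gave 5 Ces and 1 Ephx genes higher (fewer genes tested) and 1 receptor and 1 other conjugating gene lower; no filter gave 3 glutathione genes higher and 1 other conjugating gene lower. Where no such reason is given, the cause was not tested.

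With the replicate number as a block, 23 members were higher and 4 lower (2878 and 2824 genes overall), with 2 efflux genes higher and 1 other conjugating gene lower. The block ended the calls of Ces1e, Gsto2, Gstp3, Nr1h4, Nr1i2 and Tpmt and made a call of Ephx3, with the values given above. Same-numbered libraries correlated at -0.0788 to 0.119, so the numbers are not shown to pair them. Leaving out 1 library at a time gave 2316 to 2957 genes higher and 2178 to 2896 lower, 18 to 29 members higher and 3 to 6 lower. The class counts were 7 to 13 higher and 1 to 3 lower for Gst, 1 to 2 and 0 to 1 for Mgst, 0 to 2 higher for Sult, 6 to 8 for Ces and 2 to 3 for Ephx. Among the pathway lists they were 2 to 4 higher and 2 to 5 lower for glutathione, 6 to 9 lower for NRF2, 1 to 2 higher for efflux, 1 to 2 lower for other conjugating enzymes and 1 to 3 lower for receptors. The summed levels were 0.0647 to 0.5437 for Fmo, 1.0692 to 1.2135 for Ces and -0.5471 to -0.3258 for Ugt. Depth leaves 38 members untested.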
